A study of Mus musculus with 18 samples.

Results

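The crystallin genes described here are Cryaa, Cryab, Cryba1, Cryba2, Cryba4, Crybb1, Crybb2, Crybb3, Crygs and Crygb, which were picked by symbol and make up 10 of the 35006 genes counted. All 10 had counts in the retinal libraries and all 10 passed the filter on low counts. Poly(A) RNA from the retina of male mice was sequenced in 18 libraries. WT mice were C57BL/6J (3 libraries without treatment, 6 in WT + NACET), and Akita mice were C57BL/6-Ins2Akita/J, heterozygous for a mutation of the insulin gene Ins2 that makes them diabetic (4 libraries without treatment, 5 in Akita + NACET). NACET is N-acetylcysteine ethyl ester, an antioxidant. Treated mice drank it (0.33 mg/mL, or 50 mg/kg each day) between the ages of 4 and 24 weeks, at which all retinas were taken, and the other mice drank plain water. The labels do not say which libraries came from separate animals, so p-values measure the spread between libraries.

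Crystallins are the abundant soluble proteins that keep the lens transparent. The alpha-crystallins Cryaa and Cryab are small heat shock proteins that hold unfolding proteins in solution, while the beta- and gamma-crystallins are structural proteins built from related folds. Cryaa is largely a lens gene, whereas Cryab is also made in glia, heart and muscle, and several beta-crystallins have been described in retinal cells. The lens lies in front of the retina, across the vitreous, and its fibre cells hold crystallin mRNA in very large amounts.

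Levels are given as CPM, counts scaled to the same library size in every sample, at the TMM-normalized library size. There were 11590384 to 18073791 gene counts per library. A list of 13 lens genes that are no crystallins served as a second measure, chosen with earlier results of these data known. Among them were the lens membrane proteins Mip and Lim2, the beaded filament genes Bfsp1 and Bfsp2 and the gap junction gene Gja3. The summed level of all 13 was 694 CPM in WT + NACET replicate 5, 139 CPM in Akita replicate 2, 43.5 CPM in Akita + NACET replicate 3 and 12.5 CPM in Akita + NACET replicate 5. In the other 14 libraries it was 1.22 to 5.68 CPM. The sum of Akita + NACET replicate 5 came mainly from Bfsp2, Lgsn, Grifin and Bfsp1, with 82, 34, 23 and 22 of its 191 counts. Some other genes of the list did not set that library apart. Lim2 was 0.457 CPM there and 0.682 CPM in WT + NACET replicate 6. Gja3 was 0.261 CPM there and 0.314 CPM in Akita replicate 3. Mip was only slightly higher there, at 0.327 CPM against 0.273 CPM in WT + NACET replicate 6. The 4 libraries above 10 CPM, a limit chosen after the values were seen, are called lens-rich below. They comprised none of the 3 WT libraries, 1 of 6 in WT + NACET, 1 of 4 in Akita and 2 of 5 in Akita + NACET. All 18 libraries carried the rod genes of a retina, at a summed 81049 to 193392 CPM.

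Cryba4, Crybb1, Crybb2 and Crybb3 lie in 1 stretch of chromosome 5, and the other members are spread over 5 chromosomes. The sequences upstream of 5 of them are shown because these genes had high and parallel levels in single libraries (Cryaa, Cryba1, Crybb2) or showed a level that did not follow them (Crybb1, Crybb3). Each run is the 150 bases before the gene's start, 5′ to 3′, from RefSeq on build GRCm38.p6. Capitals mark a TATA box (TATAAA), which positions transcription, or the half-site TGCTGA of the Maf factors, which drive lens genes (TCAGCA when it lies on the opposite strand).
Cryaa, chr17:31677781-31677930, plus strand: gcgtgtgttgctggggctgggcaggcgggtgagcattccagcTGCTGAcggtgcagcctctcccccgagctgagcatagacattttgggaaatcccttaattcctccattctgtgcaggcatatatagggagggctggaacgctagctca
Cryba1, chr11:77725294-77725443, minus strand: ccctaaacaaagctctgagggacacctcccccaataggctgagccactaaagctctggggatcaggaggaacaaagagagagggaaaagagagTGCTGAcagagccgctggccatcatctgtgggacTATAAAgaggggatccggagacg
Crybb1, chr5:112255670-112255819, plus strand: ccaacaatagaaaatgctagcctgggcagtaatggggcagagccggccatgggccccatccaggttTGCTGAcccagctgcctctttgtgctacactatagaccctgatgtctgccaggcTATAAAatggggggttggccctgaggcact
Crybb2, chr5:113070118-113070267, minus strand: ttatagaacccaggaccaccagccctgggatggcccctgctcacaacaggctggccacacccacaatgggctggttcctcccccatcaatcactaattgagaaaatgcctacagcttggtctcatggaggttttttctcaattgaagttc
Crybb3, chr5:113081585-113081734, minus strand: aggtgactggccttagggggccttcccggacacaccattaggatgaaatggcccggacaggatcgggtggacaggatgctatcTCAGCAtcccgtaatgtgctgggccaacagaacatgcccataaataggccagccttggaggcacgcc

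Over the 300 bases around each start (250 before and 50 after), 9 of the 10 crystallins had a sequence, Cryab being absent from the table. On either strand, TGCTGA stood in 7 of these 9 promoters, all but those of Crybb2 and Crygb, and in 19.5% of all 32851 promoters. TATAAA stood in 4 of the 9 and in 13.6% of all. On the gene's own strand and with its first base between -40 and -20 it was present in Cryba1 at -23, in Crybb1 at -30 and in Crygs at -25, against 1.99% of all promoters. The match in Cryba2 began at -3, outside that window. Only the exact letters were counted, so variants such as tatata in the Cryaa sequence shown were not marked. The heat shock element core GAANNTTC was in none of the 9 and in 7.86% of all promoters. A match of letters is a description of the window, and no motif overlapped another in the sequences shown.

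Cryaa encodes alpha-A-crystallin (mm9 chr17:31814878-31818667, plus strand). It stood at 0.574, 5.84 and 2.53 CPM in the WT libraries. In WT + NACET the lowest library had 0.228 CPM, the median was 3.26 CPM and the highest had 9815 CPM. In Akita it was 0.631, 770, 2.39 and 0.995 CPM, and in Akita + NACET 0.482, 0.943, 423, 13.7 and 107 CPM. The 4 highest values belonged to the 4 lens-rich libraries, so that the lens genes moved with Cryaa (their part in the result was not tested beyond the comparisons below), and every group held libraries at about 1 CPM or less, so the groups overlapped. WT + NACET replicate 5 held 165185 Cryaa counts, which made it the gene with rank 5 of all genes there and 9085 times the median level of the other 14 libraries. WT + NACET replicate 6 (21.9 CPM) and Akita + NACET replicate 4 (13.7 CPM) were the next highest.

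Cryab, alpha-B-crystallin (mm9 chr9:50560863-50564738, plus strand), behaved differently. It was 57.1, 69.5 and 45.6 CPM in WT, and 44.7, 55.6 and 3085 CPM as the lowest, median and highest library of WT + NACET. In Akita it was 57.4, 268, 66.4 and 33.6 CPM. In Akita + NACET it was 44.0, 47.3, 169, 48.5 and 64.7 CPM. Outside the lens-rich libraries Cryab thus lay between 33.6 and 69.5 CPM, with a mean of 52.5 CPM ± 9.89 (SD, n = 14), a far narrower relative spread than that of Cryaa, 4.11 CPM ± 6.27 (SD, n = 14). The lens-rich libraries exceeded the median of the others 61.9-fold in WT + NACET replicate 5, 5.39-fold in Akita replicate 2, 3.39-fold in Akita + NACET replicate 3 and 1.30-fold in Akita + NACET replicate 5, the last value within the range of the other libraries. Cryab lies head to head with Hspb2, another small heat shock gene, 404 bases away on the opposite strand. Hspb2 had 277 counts over all 18 libraries together, against 405 to 1057 Cryab counts in each of the 14 other libraries, and the exons of the pair do not overlap.

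**Figure D1:**
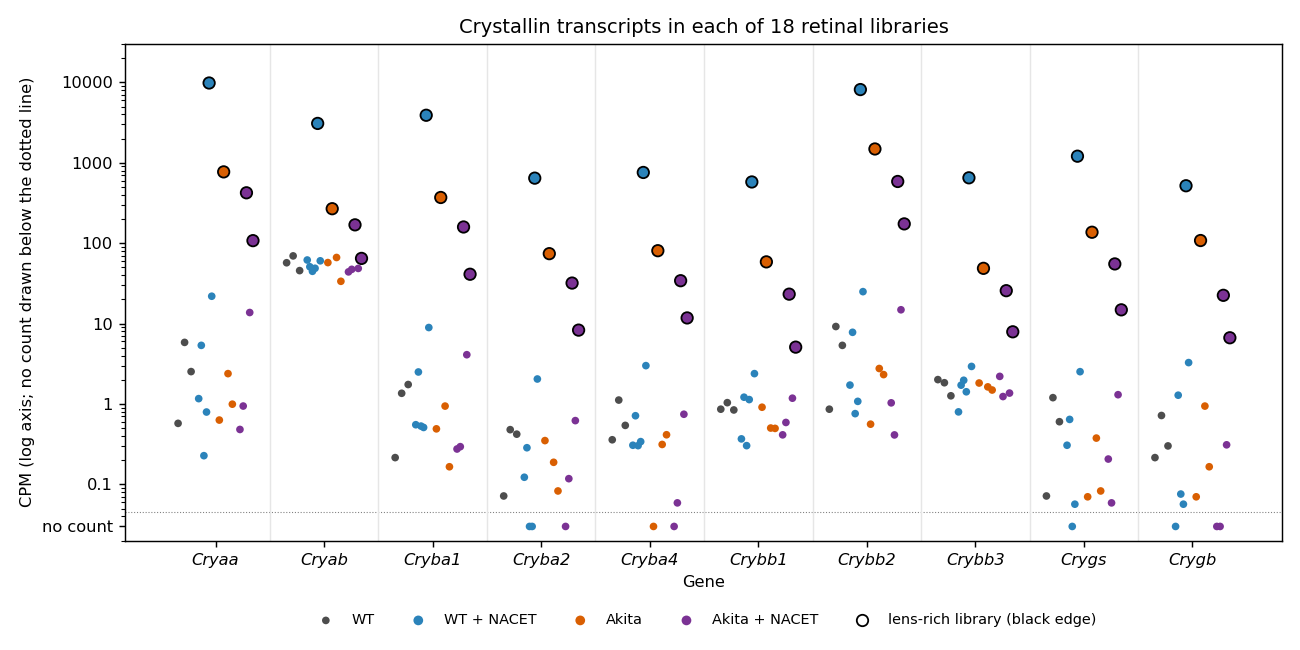
CPM of each crystallin (log axis) in 18 libraries, with 1 point per library, colours for the 4 groups and black edges for the 4 lens-rich libraries; libraries without a count are drawn below the dotted line. The lens-rich libraries stand above all others for every gene except Cryab, where 1 of them, at 64.7 CPM, lies among the rest.

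Among the acidic beta-crystallins, Cryba1 (mm9 chr11:77532117-77538785, minus strand) was 0.215, 1.36 and 1.75 CPM in WT. WT + NACET had 0.511, 1.53 and 3897 CPM as its lowest, median and highest values. Akita had 0.491, 370, 0.942 and 0.166 CPM, and Akita + NACET had 0.276, 0.295, 159, 4.10 and 41.1 CPM. The same 4 libraries were thus high. Cryba2 (mm9 chr1:74936508-74939717, minus strand) and Cryba4 (mm9 chr5:112675513-112681538, minus strand) were lower. In the 14 other libraries Cryba2 had 0 to 30 counts and Cryba4 0 to 44, with no count in 3 and 2 libraries, which at a floor of 3 counts does not show absence. In the lens-rich libraries they had 127 to 10833 and 180 to 12748 counts.

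Among the basic beta-crystallins, Crybb2 (mm9 chr5:113487278-113499137, minus strand) had the highest or second highest counts of the crystallins in each lens-rich library. It was 0.862, 9.19 and 5.36 CPM in WT. It was 0.759, 4.75 and 8132 CPM as lowest, median and highest in WT + NACET, where the highest library ranked it 7 of all genes. It was 0.561, 1484, 2.76 and 2.32 CPM in Akita, and 1.03, 0.413, 585, 14.9 and 174 CPM in Akita + NACET. In 3 of the 4 lens-rich libraries, all but WT + NACET replicate 5, Crybb2 had more counts than any other crystallin.

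Crybb3 (mm9 chr5:113504859-113510604, minus strand), its neighbour, held a steady low level instead. It was 2.01, 1.84 and 1.26 CPM in WT, and 0.798, 1.84 and 650 CPM as lowest, median and highest in WT + NACET. It was 1.82, 48.6, 1.63 and 1.49 CPM in Akita, and 2.21, 1.24, 25.7, 1.37 and 7.90 CPM in Akita + NACET. Outside the lens-rich libraries its 13 to 43 counts per library gave 1.69 CPM ± 0.51 (SD, n = 14). Crybb1 (mm9 chr5:112684835-112698605, plus strand) lies head to head with Cryba4 at a distance of 3297 bases. It had 4 to 35 counts in the 14 other libraries, a mean of 0.875 CPM ± 0.537 (SD, n = 14), and 5.09 to 577 CPM in the lens-rich ones.

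The gamma-crystallins, structural proteins of the lens fibres, had few counts outside the lens-rich libraries, as did Cryba2. Crygs (mm9 chr16:22805276-22811483, minus strand) had 0 to 37 counts in those 14 libraries and 227 to 20313 in the lens-rich ones. Crygb (mm9 chr1:65126804-65128862, minus strand) had 0 to 48 and 102 to 8711 counts. Of the 14 libraries, Crygs had 3 counts or fewer in 7 and Crygb in 8. Gamma-crystallin genes resemble each other closely, and reads that aligned to several places had been dropped, so the counts of Crygb may be too low by an unknown share. The other fibre cell gamma-crystallins Crygc and Crygd had 3358 and 559 counts in WT + NACET replicate 5, and 0 to 11 and 0 to 3 counts in the 14 libraries.

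For levels per kilobase, the length of a gene was that of all its annotated exons joined. It was 2333 bases for Crybb3, 2012 for Crybb2 and 623 for Crygb, so the order of genes at close levels depends on the annotation. Compared per kilobase of exon, Cryab was the highest crystallin in the 14 libraries, with a median of 42.0 CPM per kb. It was followed by Crybb2 with 1.004, Cryaa with 0.911, Crybb1 with 0.855 and Crybb3 with 0.717 CPM per kb. Below these came Cryba4 (0.412 CPM per kb), Crygs (0.363), Cryba1 (0.331), Crygb (0.306) and Cryba2 (0.131). The lowest Cryab library, at 28.3 CPM per kb, was above the highest value of any other crystallin, 18.5 CPM per kb for Cryaa, and the ranges of all other neighbours in this order overlapped. In WT + NACET replicate 5 the order was another one, with Cryaa at 8276, Crybb2 at 4042, Cryab at 2603, Cryba1 at 2378 and Crygs at 1705 CPM per kb, and with Crybb3 lowest at 279 CPM per kb.

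The make-up of the crystallin pool therefore differed between the kinds of library. Cryab gave 45.6% to 92.7% of the summed crystallin counts in the 14 other libraries, with a median of 88.4%, and 7.89% to 14.6% in the lens-rich ones. Crybb2 gave 27.8% to 43.7% and Cryaa 22.7% to 33.5% in the lens-rich libraries, against medians of 3.09% and 2.17% in the others. The summed level of the 10 genes was 39.8 to 132 CPM in the 14 libraries and 441 to 29282 CPM in the lens-rich ones, where it reached 2.80% of all gene counts.

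**Figure D2:**
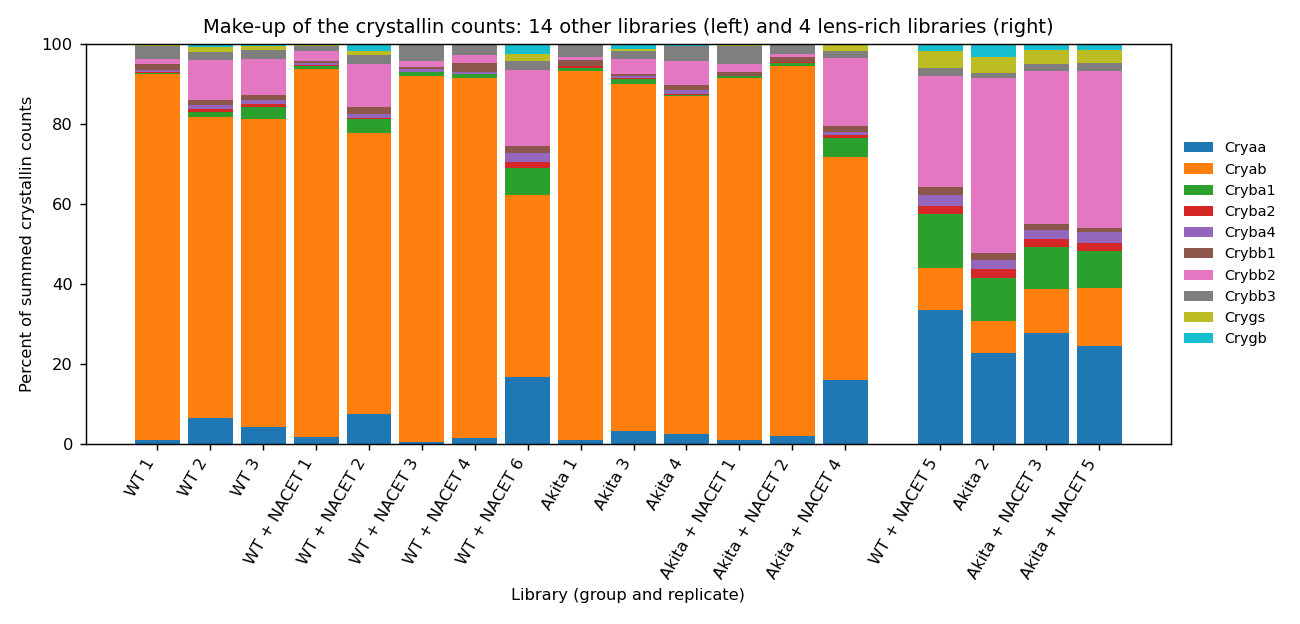
Percent of the summed crystallin counts (vertical axis) given by each of the 10 genes in each library, with the 14 other libraries on the left and the 4 lens-rich libraries on the right. Cryab, in orange, takes 45.6% to 92.7% of the bar on the left and 7.89% to 14.6% on the right, where Crybb2 and Cryaa are the largest parts.

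The lens-rich libraries did not have the same make-up. In WT + NACET replicate 5 Cryaa made 33.5% of crystallin counts (exact 95% interval 33.4% to 33.7%) and Crybb2 27.8% (27.6% to 27.9%). In Akita replicate 2 the order was reversed, with 22.7% for Cryaa (22.3% to 23.0%) and 43.7% for Crybb2 (43.3% to 44.1%). Akita replicate 2 also had the larger share of Crygb, at 3.17% (3.03% to 3.32%) against 1.77% (1.73% to 1.80%). These intervals cover counting error only, and with 1 library of each kind the differences have no replicate check. The lens genes differed too. Lgsn, a lens protein of the glutamine synthetase family, had 1196 counts per 100000 crystallin counts in Akita replicate 2 (exact 95% interval 1109 to 1288) and 369 (352 to 386) in WT + NACET replicate 5. Foxe3, a transcription factor of the lens epithelium, had 59 counts in WT + NACET replicate 5, 2 and 1 in Akita + NACET replicates 3 and 5, and 0 in Akita replicate 2 and in the 14 others.

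To separate a level that follows the lens-rich pattern from one that does not, the counts of each crystallin were set against those of Crybb2 in the same library. In the 4 lens-rich libraries Cryab had 0.181 to 0.379 counts per Crybb2 count, and Crybb3 0.0328 to 0.0799. With these ratios, the Crybb2 counts of the 14 other libraries give a range of counts for every other crystallin, which was compared with the exact Poisson 95% interval of its own count, the error of the Crybb2 count being left aside. Cryab was above its range in 14 of 14 libraries. Crybb3 was above it in 13 of 14 and Crybb1 in 11 of 14. By contrast, Cryba1 and Crygs lay within it in all 14, Cryaa and Cryba2 were above it in 1, and Cryba4 and Crygb in 3. No crystallin was below its range in any of the 14 libraries. Where Crybb2 counts were few, as with 7 in Akita + NACET replicate 2, even a count of 0 would not have been below it. In such libraries a place within the range does not show that a gene followed Crybb2. In Akita replicate 1, for example, 8 Crybb2 counts corresponded to 1.45 to 3.03 counts of Cryab, and 818 were found. In WT + NACET replicate 6, the library with the most Crybb2 of the 14, the scaled Cryab was 66.2 to 139 counts and 885 were found.

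**Figure D3:**
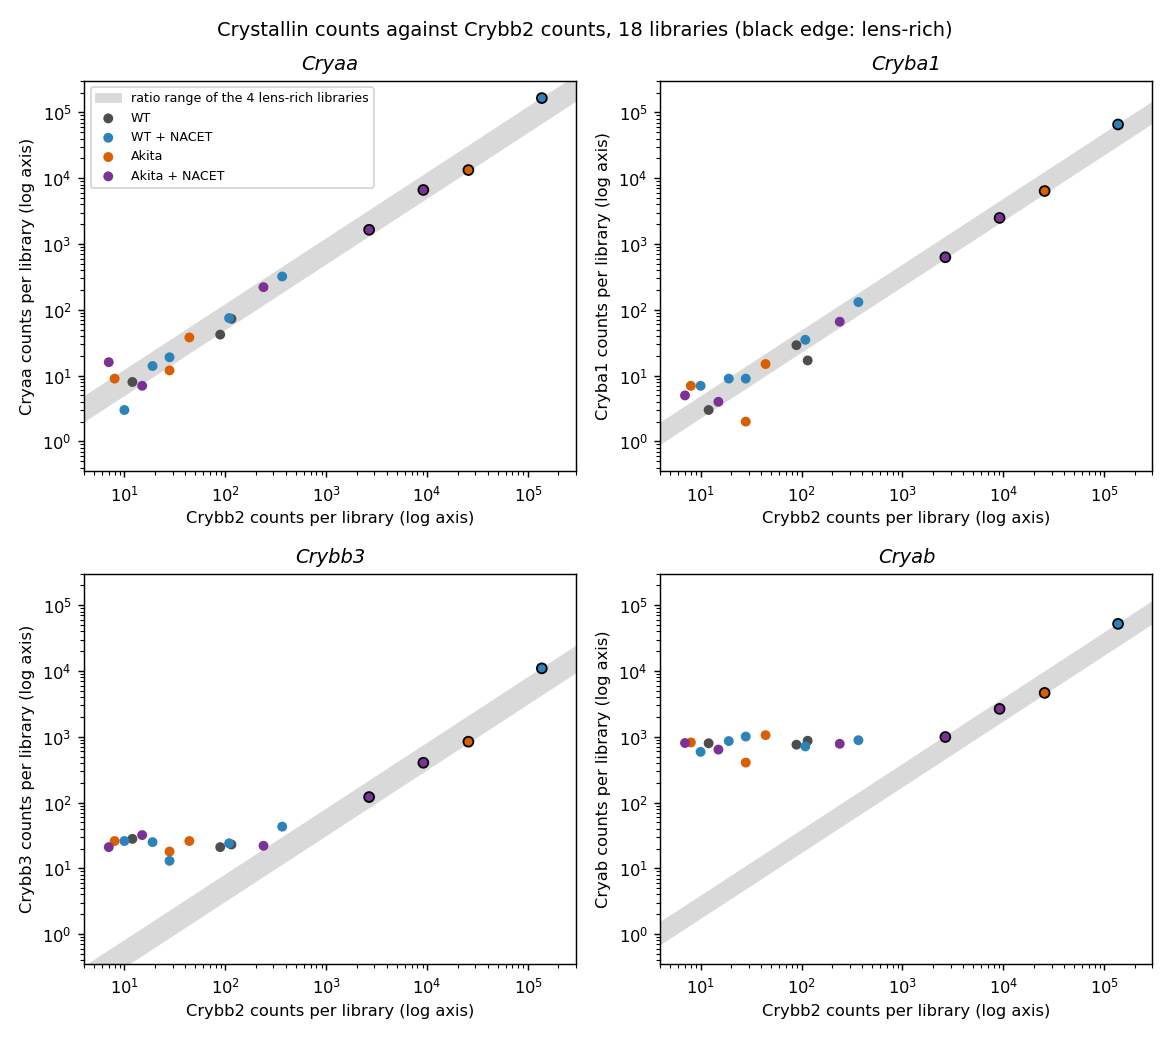
Counts of Cryaa, Cryba1, Crybb3 and Cryab against Crybb2 counts in the same library (both axes log), 1 point per library; grey bands give the ratios found in the 4 lens-rich libraries (black edges). Cryaa and Cryba1 scatter in and around the band down to the lowest libraries, whereas Crybb3 levels off at 13 to 43 counts and Cryab at 405 to 1057 counts.

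In correlations over the 14 other libraries Cryab and Crybb3 stood apart, while Crybb1 did so only in part. The 4 lens-rich libraries form a cluster of their own, so no value over all 18 is given. Of 45 pairs of crystallins, 28 were correlated on log2 CPM at a Benjamini-Hochberg adjusted p of at most 0.05 by Pearson's r, all with a positive sign, and 25 by both r and Spearman's rho. Cryaa and Crybb2 had r = 0.945 (permutation p = 1e-05, the smallest these permutations can give, adjusted p = 0.00015) and rho = 0.899 (permutation p = 4e-05, adjusted p = 0.0006). Without the 2 libraries farthest from the Cryaa median r was 0.892. Cryab and Crybb3 were in none of the 28 pairs. Crybb1 was in 7 of them, such as that with Cryaa (r = 0.748, permutation test, adjusted p = 0.00387). By rho, its pairs with Cryba1, Crybb2 and Crygs did not pass (permutation test, adjusted p = 0.0624, 0.0644 and 0.0859). Without the 2 farthest libraries, r in the 7 Crybb1 pairs ran from 0.319 (with Cryba4) to 0.543 (with Cryaa). For Cryaa and Cryab r was 0.349 (permutation p = 0.221, adjusted p = 0.284) and rho 0.437 (permutation p = 0.119, adjusted p = 0.178), with r = 0.406 without the 2 farthest libraries. For Cryab and Crybb3 r was 0.0943 (permutation p = 0.749, adjusted p = 0.749) and rho 0.0769 (permutation p = 0.798, adjusted p = 0.854), with r = 0.000506 without the 2 farthest. These libraries come from 4 groups, and the low counts of most members add to the scatter.

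Group means over all libraries were set by the lens-rich ones. Mean Cryaa was 2.98 CPM ± 2.66 (SD, n = 3) in WT, 1641 CPM ± 4005 (SD, n = 6) in WT + NACET, 194 CPM ± 384 (SD, n = 4) in Akita and 109 CPM ± 181 (SD, n = 5) in Akita + NACET. Each SD of the last 3 groups was larger than its mean. With the 14 other libraries alone, mean Cryab was 57.4 CPM ± 11.9 (SD, n = 3) in WT, 53.3 CPM ± 7.44 (SD, n = 5) in WT + NACET, 52.4 CPM ± 16.9 (SD, n = 3) in Akita and 46.6 CPM ± 2.36 (SD, n = 3) in Akita + NACET. Mean Crybb3 was 1.70 CPM ± 0.39, 1.77 CPM ± 0.78, 1.65 CPM ± 0.17 and 1.60 CPM ± 0.53 (SD, same groups and n). The groups overlapped for both genes. The lowest Cryab library, Akita replicate 4 with 33.6 CPM, also had the lowest summed level of 10 Mueller glia genes, 1419 CPM, where the 14 libraries had a median of 2599 CPM. It also had the lowest sum of ganglion cell genes (623 CPM, median 1383 CPM) and the highest sum of rod genes (193392 CPM, median 113932 CPM), and the part of these differences in its Cryab level was not tested. In bulk retina, fewer cells of a type and less RNA per cell cannot be told apart.

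**Figure D4:**
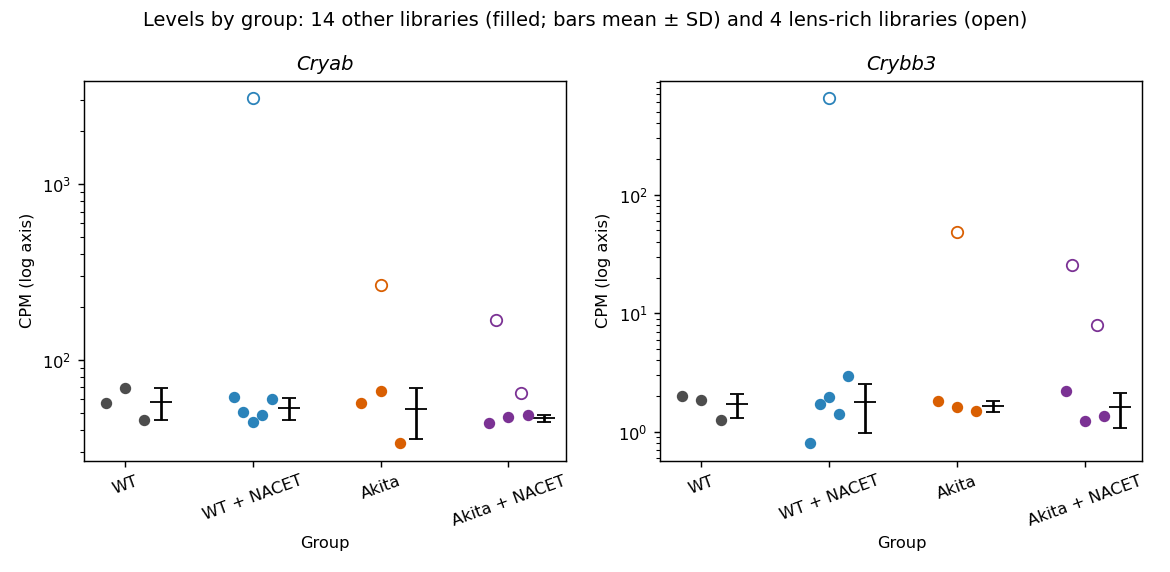
CPM (log axis) of Cryab and Crybb3 by group, with filled points for the 14 other libraries, open points for the 4 lens-rich libraries and black bars for the mean ± SD of the filled points. The filled points of the 4 groups overlap, at 33.6 to 69.5 CPM for Cryab and 0.798 to 2.93 CPM for Crybb3.

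The comparisons of genotype and treatment called no crystallin. With edgeR, over 16183 genes tested and all 18 libraries, 0 of 10 members passed an adjusted p of at most 0.05 in Akita vs WT, where 7.64% of all genes were called, and 0 of 10 in Akita + NACET vs Akita, where 9.65% were. The same held in WT + NACET vs WT (1.48% of all genes), Akita + NACET vs WT + NACET (13.3%), Akita + NACET vs WT (0.00618%) and for the interaction of genotype and NACET (20.3%). At an unadjusted p below 0.05 in the edgeR fit there was 1 member in each of 3 comparisons, which were Crybb3 in WT + NACET vs WT, Cryab in Akita + NACET vs WT + NACET and Crygb in the interaction. Their adjusted p was 0.255, 0.134 and 0.125. DESeq2 gave no p-value for any member in any comparison, because its rule for single outlying counts applied to all 10. In none of the 5 comparisons of groups did a member have groups without overlap, against 23.2%, 14.1%, 11.5%, 8.01% and 4.17% of all genes in the order above.

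The fold changes were large and so were their errors. In Akita vs WT they ran from 0.90 (Cryab) to 6.36 (Cryba1) on the log2 scale. Cryaa had 6.05 ± 4.08 (SE, adjusted p = 0.364) and Cryab 0.90 ± 1.49 (SE, adjusted p = 0.738). In WT + NACET vs WT Cryaa had 9.13 ± 4.54 (SE, adjusted p = 0.281), Cryab 3.28 ± 1.60 (SE, adjusted p = 0.274) and Crybb3 6.02 ± 2.81 (SE, adjusted p = 0.255). The median over the 10 members was 5.83 and 7.91 in these comparisons, where the median over all genes was -0.01 in each, but each rested on 1 lens-rich library. Akita + NACET vs Akita, with lens-rich libraries on both sides, gave a median of -1.20, and Cryab -0.51 ± 1.27 (SE, adjusted p = 0.828).

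Without the 4 lens-rich libraries, which left 3, 5, 3 and 3 libraries in the order WT, WT + NACET, Akita and Akita + NACET, 9 members passed the filter (Cryba2 did not) and edgeR again called 0 of 9 in every comparison, with none at an unadjusted p below 0.05. Of all 15920 genes tested, 7.43% were called in Akita vs WT, 0.948% in WT + NACET vs WT, 1.56% in Akita + NACET vs WT + NACET and 9.37% in the interaction. No gene was called in Akita + NACET vs Akita (3457 genes at an unadjusted p below 0.05, 883 called by DESeq2) or in Akita + NACET vs WT (573 and 8). DESeq2 on the same 14 libraries called 0 of the 5 to 10 members to which it gave an adjusted p, where it called 6.25% of all genes in Akita + NACET vs Akita, 14.2% in Akita vs WT, 3.85% in WT + NACET vs WT, 4.9% in Akita + NACET vs WT + NACET, 0.0296% in Akita + NACET vs WT and 14.5% in the interaction. The Cryab difference was then -0.13 ± 0.21 (SE, adjusted p = 0.732) in Akita vs WT, where it had been 0.90, and -0.17 ± 0.21 (SE, adjusted p = 0.658) in Akita + NACET vs Akita. It was -0.10 ± 0.19 (SE, adjusted p = 0.809) in WT + NACET vs WT, -0.19 ± 0.19 (SE, adjusted p = 0.618) in Akita + NACET vs WT + NACET and -0.30 ± 0.21 (SE, adjusted p = 0.9998) in Akita + NACET vs WT. Crybb3 had 0.051 ± 0.35 in WT + NACET vs WT and -0.036 ± 0.39 in Akita vs WT (SE, adjusted p = 0.955 and 0.963). Cryaa kept wide errors, with -1.10 ± 1.75 in Akita vs WT and 1.89 ± 1.69 in Akita + NACET vs Akita (SE, adjusted p = 0.721 and 0.548).

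**Figure D5:**
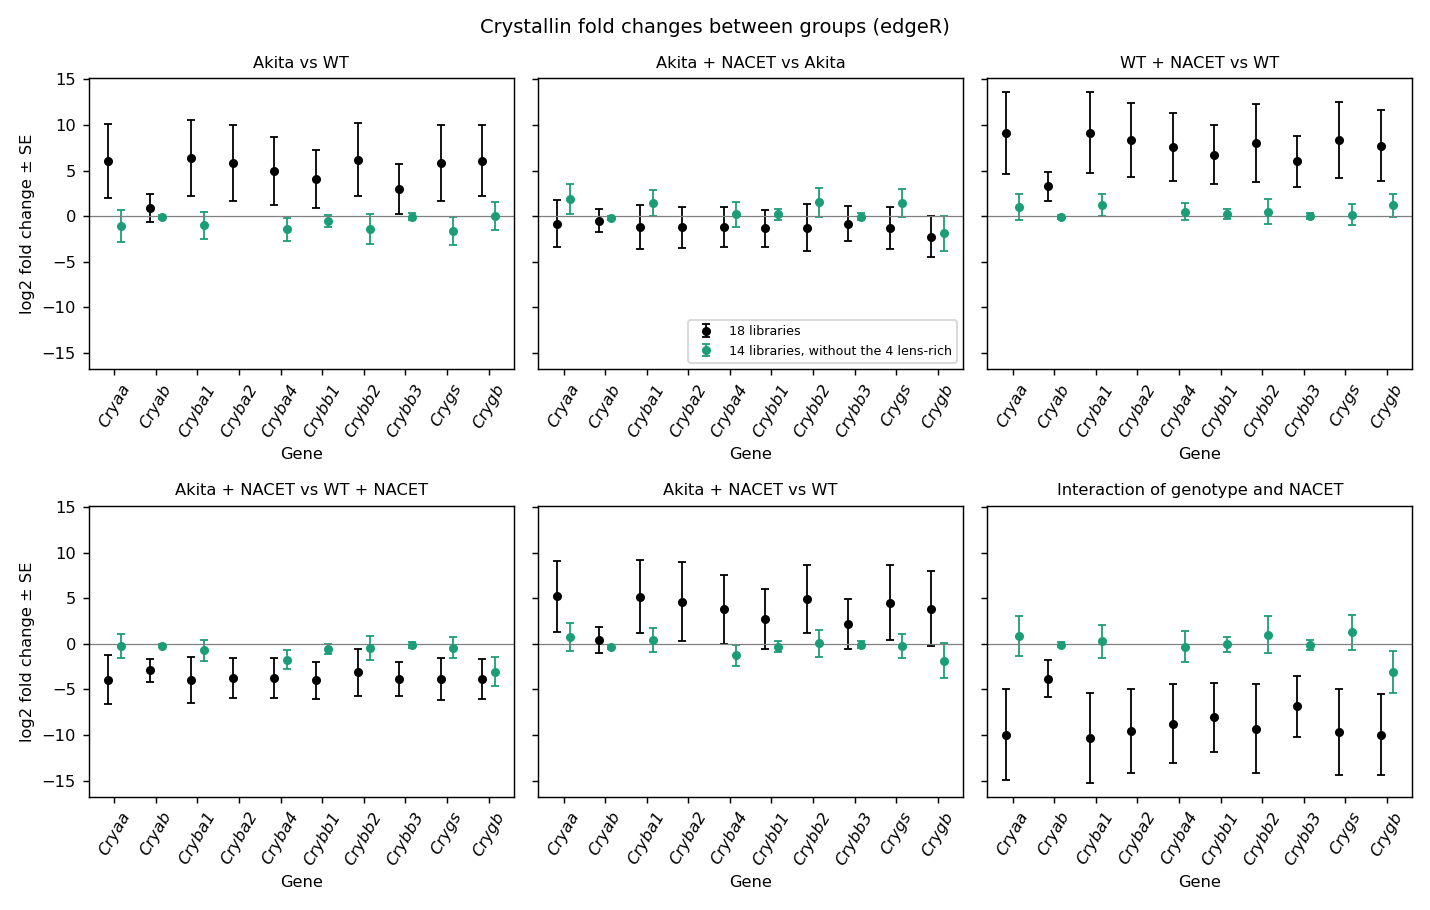
log2 fold change ± SE (vertical axis) of each crystallin in the 6 comparisons, in black with all 18 libraries and in green without the 4 lens-rich ones, where Cryba2 was not tested. The black values run from -10.35 to 9.16 with a largest error of 5.02 for Cryaa, and the green values of Cryab lie between -0.30 and -0.068.

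The genes whose log2 CPM across all 18 libraries was most like that of a crystallin were lens genes, described here by Pearson's r with no test, since 4 libraries set it. For Cryaa they were Lgsn (r = 0.95), Bfsp1 (0.93) and Grifin (0.93), and for Crybb2 the same genes (0.94, 0.93 and 0.92). For Crybb3 they were Mip (0.98), Gja3 and Bfsp1 (0.96 each). All named genes of this kind were on the lens list but one, Dhx32, the third for Cryab (0.95) after Mip (0.95) and Gja3 (0.95). Dhx32, an RNA helicase gene, was 45.5 to 51.8 CPM in the 14 other libraries and 74.5 CPM in WT + NACET replicate 5. Over the 14 libraries, the genes most like Cryab were Utrn, the dystrophin relative utrophin (r = 0.953), Aldh2, a mitochondrial aldehyde dehydrogenase (0.938), and Pla2g16, a phospholipase (0.933). Those most like Crybb3 were S100a13 (0.828), Pfn2 (0.815) and B3gat3 (0.806). For the other 8 members the best r over these libraries was 0.75 to 0.89. These values over 14 libraries were not tested either. Each is the highest among all genes tested, and with so many genes the highest can be large by chance.

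Genes related to the crystallins by family, by name or by control were read from fixed lists. None of the 8 lens genes and none of the 3 other gamma-crystallins that passed the filter was called in any of the 6 comparisons. Of 6 tested genes with a small heat shock name, 2 fell in Akita + NACET vs WT + NACET, where 13.3% of all genes were called. Of these 2, only Hspb6 belongs to the protein family of Cryaa and Cryab. Hspb6, a cytosolic chaperone of muscle and nerve, was 159 CPM ± 10.6 (SD, n = 5) against 250 CPM ± 35.1 (SD, n = 6), a difference of -0.65 ± 0.11 (SE, adjusted p = 0.00121). Hspb11, a part of the ciliary transport machinery, was 17.7 CPM ± 1.13 (SD, n = 5) against 27.0 CPM ± 2.43 (SD, n = 6), a difference of -0.61 ± 0.09 (SE, adjusted p = 0.000287). The groups did not overlap for either gene, which was so for 8.01% of all genes in this comparison. Neither of these calls was lost under any alternative. Hspb6 also fell in Akita + NACET vs Akita, by 0.59 on the log2 scale (adjusted p = 0.0161), a call lost without Akita replicate 4 (adjusted p = 0.0567), without the 4 lens-rich libraries (adjusted p = 0.0718) and with the reads outside exons in the model (adjusted p = 0.633). Hspb11 rose in WT + NACET vs WT by 0.44 (adjusted p = 0.035), a call lost without any 1 of 8 libraries, where the adjusted p ran from 0.0505 to 0.167, and with the reads outside exons in the model (0.239). This Hspb11 call was also lost without the 4 lens-rich libraries (0.0747), with only these groups in the fit (0.0655), with no filter (0.0596) and with the replicate number as a block (0.0598). Both had a negative interaction, -1.02 for Hspb6 (adjusted p = 0.00192) and -0.72 for Hspb11 (adjusted p = 0.00329), which was lost only with the covariate of reads outside exons (adjusted p = 0.407 and 0.413). Of 6 crystallin relatives, 2 were called in the interaction, in opposite directions, where 20.3% of all genes were called. Cryz, a quinone reductase that serves as a lens crystallin in some mammals, had -0.42 (adjusted p = 0.0317), a call lost without any 1 of 8 libraries (adjusted p 0.0505 to 0.0729), without the 4 lens-rich ones (0.0882) and with the reads outside exons in the model (0.658). With no filter and with the replicate number as a block the Cryz call was lost too (adjusted p = 0.0574 and 0.0505). Crybg3, a large protein with beta- and gamma-crystallin repeats, had 1.15 ± 0.29 (SE, adjusted p = 0.0109). Crybg3 was 14.3 CPM ± 1.32 (SD, n = 3) in WT, 9.94 CPM ± 1.92 (SD, n = 6) in WT + NACET, 8.67 CPM ± 2.29 (SD, n = 4) in Akita and 13.4 CPM ± 3.95 (SD, n = 5) in Akita + NACET. When the model also held each library's share of reads outside exons, which ran from 9.68% to 20.001%, the value was 0.25 (adjusted p = 0.852).

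Of 10 lens transcription factors tested, 2 fell in Akita vs WT, where 7.64% of all genes were called and 23.2% had groups without overlap. Pax6, which governs eye development and is kept on in inner retinal neurons, was 181 CPM ± 33.7 (SD, n = 4) in Akita and 261 CPM ± 35.3 (SD, n = 3) in WT (log2 difference -0.53 ± 0.13 SE, adjusted p = 0.0236). Six3, an eye field factor, was 13.9 CPM ± 2.71 (SD, n = 4) and 21.2 CPM ± 2.76 (SD, n = 3) in the same groups (log2 difference -0.61 ± 0.16 SE, adjusted p = 0.0299). The groups did not overlap for either gene. The heat shock factor Hsf2 was higher in Akita + NACET vs WT + NACET, by 0.53 (adjusted p = 0.013), a call lost without the 4 lens-rich libraries (0.28, adjusted p = 0.212) and with the reads outside exons in the model (0.32, adjusted p = 0.305). In the interaction 6 genes of the list were positive, where 20.3% of all genes were called in either direction. The 4 with the smallest p were Pax6 at 0.62, Mafg at 0.87, Hsf2 at 0.67 and Prox1 at 1.15 (adjusted p = 0.0146, 0.0253, 0.0281 and 0.0373), and each of these calls was lost without WT replicate 1, with adjusted p of 0.0598, 0.061, 0.0562 and 0.062. With the reads outside exons in the model it was 0.497, 0.824, 0.86 and 0.905, and 13 of 16183 genes were called in the interaction. The calls of Mafg, Hsf2 and Prox1 were also lost without the 4 lens-rich libraries (adjusted p = 0.0911, 0.13 and 0.0816). They were lost without WT replicate 2 too (0.0646, 0.08 and 0.107). Prox1 lost its call in further settings, such as no filter (0.0826) or without WT + NACET replicate 5 (0.0556). No gene of the list was called in the other 3 comparisons. The calls of Pax6 and Six3 were lost without WT replicate 1 (adjusted p = 0.147 for Pax6 and 0.153 for Six3), WT replicate 2 (0.0867 and 0.109) or Akita replicate 4 (0.0583 and 0.0854). They were also lost with the reads outside exons in the model (0.281 and 0.352), where edgeR called 0 genes in Akita vs WT, with 2002 at an unadjusted p below 0.05, with only these groups in the fit (0.106 and 0.097) and with the replicate number as a block (0.0514 and 0.0736).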

How the data were processed

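The deposited files hold raw counts of uniquely aligned reads per gene, which the authors made from single-end TruSeq poly(A) libraries with TopHat 2.1.0 on mm9 and HTSeq-count 0.11.2, without strand. Reads placed in several genes are left out, which affects near-identical gamma-crystallins. The row with no gene name (0.0054% of counts on average) and 206 rRNA genes (0.977%) were removed.

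Genes passing edgeR's filter (minimum count 10, total 15) were TMM-normalized and tested with edgeR 4.0.16 in R 4.3.3 (quasi-likelihood, robust), with all 4 groups in 1 fit and Benjamini-Hochberg adjustment over all genes tested at 0.05. DESeq2 1.42.0, which the study used, was an alternative. Correlations used log2 CPM (prior count 2) and 100000 two-sided permutations. Shares have exact Clopper-Pearson 95% intervals, which cover counting error only. The fit was tested on simulated counts.

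The members and lists were chosen with earlier results of these data known. Named genes are the members, the 3 genes most like each by Pearson's r over 18 libraries, and of each list at most the 4 called genes with the smallest p. The genes most like over 14 libraries, the lens-rich limit and the fits without those libraries were added after seeing the data. Deviations of same-numbered libraries correlated at -0.33 to 0.34 between groups, so numbers were not taken as pairs.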

Additional observations from a re-analysis of the deposited data

Results flagged for a closer look

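The highest library of a group of 4 to 6 stood farther from its nearest neighbour than Dixon's 95% limit allows in 32 cases. Chance flags about 1 group in 20 where values have a normal spread, which was not shown for CPM, taken here without logs. These 32 flags are repeats of 3 libraries and not separate events. The sums of the lens genes among them are the values by which those libraries were called lens-rich.

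In WT + NACET replicate 5 all 10 crystallins were singled out, with Cryaa at 9815 CPM, Crybb2 at 8132 CPM, Cryba1 at 3897 CPM, Cryab at 3085 CPM and Crygs at 1207 CPM. Cryba4 stood at 757 CPM, Crybb3 at 650 CPM, Cryba2 at 644 CPM, Crybb1 at 577 CPM and Crygb at 518 CPM. The summed lens genes (694 CPM) and the other gamma-crystallins (251 CPM) were singled out in the same library.

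In Akita replicate 2 all 10 were singled out too. Crybb2 was 1484 CPM, Cryaa 770 CPM, Cryba1 370 CPM, Cryab 268 CPM and Crygs 137 CPM. Crygb was 108 CPM, Cryba4 80.6 CPM, Cryba2 74.1 CPM, Crybb1 58.5 CPM and Crybb3 48.6 CPM. The lens genes summed to 139 CPM and the other gamma-crystallins to 33.4 CPM.

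In Akita + NACET replicate 3 there were 7 crystallins, Cryaa at 423 CPM, Cryab at 169 CPM, Cryba1 at 159 CPM, Crygs at 55.2 CPM, Cryba2 at 31.9 CPM, Crybb3 at 25.7 CPM and Crybb1 at 23.2 CPM, together with the lens genes at 43.5 CPM. Groups of 3 were not examined, so the WT libraries were not.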

How the results depend on the processing

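The count of crystallins called was 0 in each comparison under every alternative that gave a test, which were other size factors, no filter, a mean count of at least 50, rRNA genes kept, only the groups compared (not possible for the interaction, and with 7 to 9 members tested), a term for the reads outside exons, the replicate number as a block and each of the 18 libraries left out in turn. The smallest adjusted p of a crystallin with 1 library left out was 0.0911. DESeq2 with all 18 libraries gave no p for any of the 10 members. The log2 fold changes, none of them called, turned sign in several settings, and the lens-rich libraries were left out in the first of these, added after seeing the data. Without these 4, Akita vs WT gave -1.10 for Cryaa, -0.13 for Cryab and -0.036 for Crybb3, Akita + NACET vs Akita 1.89 for Cryaa, WT + NACET vs WT -0.10 for Cryab, Akita + NACET vs WT -0.30 for Cryab and -0.087 for Crybb3, and the interaction 0.89 for Cryaa. Without these 4 and Akita replicate 4, the values of Cryaa were -0.93, 1.72 and 0.73 for Akita vs WT, for Akita + NACET vs Akita and for the interaction, and Cryab was -0.10 in WT + NACET vs WT and -0.30 in Akita + NACET vs WT, with Crybb3 at -0.087 there. With the term for reads outside exons, Cryab was -0.27 in Akita vs WT, and Akita + NACET vs Akita gave 0.34 for Cryaa, 0.58 for Cryab and 0.60 for Crybb3. Without the 4 lens-rich libraries, 8, 6, 1, 0, 6 and 4 of the 9 members tested turned sign, in the order of the comparisons in the text. The cause of the sign changes was not tested.

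With 1 library left out, Akita vs WT ran from -1.08 to 6.91 for Cryaa, from -0.13 to 1.19 for Cryab and from -0.026 to 3.39 for Crybb3. Akita + NACET vs Akita ran from -2.66 to 6.30, from -1.06 to 0.51 and from -2.12 to 2.21 for the same genes. Akita + NACET vs WT + NACET ran from -5.74 to 4.23, from -3.45 to 0.49 and from -5.12 to 2.12. WT + NACET vs WT ran from -0.10 to 3.53 for Cryab. With the fit that left out 5 libraries included, Akita + NACET vs WT ran from -0.30 to 0.54 for Cryab and from -0.087 to 2.46 for Crybb3, and the interaction of Cryaa from -11.79 to 0.73. Sign changes with 1 library out came from Akita replicate 2, WT + NACET replicate 5 and Akita + NACET replicate 3. Without Akita replicate 2 the sign turned for 9 of 10 members in Akita vs WT and for all 10 in Akita + NACET vs Akita. Without WT + NACET replicate 5 it turned for all 10 in Akita + NACET vs WT + NACET and for 1 in WT + NACET vs WT. Without Akita + NACET replicate 3 it turned for 1 in Akita + NACET vs WT.

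Replicate numbers were shared across groups but did not pair the libraries. With the replicate number as a block 0 crystallins were called in every comparison, Akita + NACET vs Akita gave 0.28 for Cryaa, and Akita + NACET vs WT + NACET gave 3.77 for Cryaa and 0.33 for Crybb3. In Akita + NACET vs WT + NACET the sign turned for 9 of 10 members, and their median went from -3.83 to 0.99. In Akita + NACET vs Akita it turned for 1 of 10. Of all genes, 507, 219, 190, 1363, 0 and 2656 were called with the block and 1237, 1562, 240, 2148, 1 and 3289 without it, in the order of the comparisons in the text. Of 45 pairs of crystallins, 26 were correlated by Pearson's r with a prior count of 0.5, where 28 were with 2. Cryba2, Crygs and Crygb had 3 counts or fewer in 7 or 8 of the 14 other libraries, and the smallest difference that could be found at this depth was not measured.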

Other observations

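Crygn, a gamma-crystallin relative described in retinal neurons, had 256 counts (15.2 CPM) in WT + NACET replicate 5 and 7, 13 and 4 counts in the other lens-rich libraries. In the 14 other libraries it had 1 to 25 counts, so that 3 of the 4 lens-rich libraries lay within that range. The fibre cell gene Crygc, by contrast, had 3358, 465, 84 and 23 counts in WT + NACET replicate 5, Akita replicate 2 and Akita + NACET replicates 3 and 5, and at most 11 in the others.

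The summed genes of melanocytes and iris pigment stood at 667 CPM in WT + NACET replicate 5 and at 392 CPM in WT replicate 2. They stood at 17.1 to 123 CPM in the other 16 libraries. The 13 lens genes of WT replicate 2 summed to 5.68 CPM. This was below the limit of 10 CPM but the highest sum of the 14 libraries that were not lens-rich, whose median was 1.94 CPM. The summed cornea genes were highest in Akita + NACET replicate 5, at 116 CPM, the lens-rich library with the lowest lens gene level. They stood at 53.8 CPM in Akita replicate 2, at 26.0 CPM in Akita + NACET replicate 3, at 11.8 CPM in WT + NACET replicate 5 and at 2.14 to 43.1 CPM in the 14 other libraries.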
